A study of Mus musculus with 4 samples.

Results

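The 59 gene identifiers examined here are the protein-coding chemokine and chemokine receptor genes of chromosomes 1 to 19, out of 21418 protein-coding genes on these autosomes. They were taken by symbol from the mm9 annotation (GENCODE M1), as genes named Ccl, Ccr, Cxcl, Cxcr, Xcl, Xcr or Cx3c followed by a number or by l1 or r1. Of the identifiers, 38 are ligands (37 symbols) and 21 are receptors (20 symbols), since Ccl25 and Ccrl1 each carry 2 overlapping identifiers. RIF1 occupancy was measured by chromatin immunoprecipitation with an anti-HA antibody and sequencing (ChIP-seq). Splenic B cells of Rif1FH/FH mice, in which RIF1 carries Flag and HA tags on its own gene (2 samples), were compared in the study with C57BL/6 cells of genotype Rif1WT/WT (2 samples), which carry no tag. All 4 samples were grown for 72 h with 5 µg/ml LPS and 5 ng/ml IL-4, stimuli that activate B cells, and the sources used here give neither the age of the mice nor how many were pooled.

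The data analysed were a single list of 16332 intervals found in each of the Rif1FH replicates, which gives positions and no heights. Its 16043 narrow intervals, all under 50 kb, are called peaks below, and its 289 wide intervals of 50 kb or more are the broad form of RIF1 enrichment. The study did not keep peaks that overlapped its broad domains, so by construction no peak is listed inside a wide interval. The forms were therefore counted apart, and a missing peak inside a wide interval is not a finding. With no value per sample, no spread between replicates and no contrast with Rif1WT cells could be computed. Read depth per sample is unknown. All counts below are therefore descriptions without a test, and neighbouring members that share a locus are not independent. The labelled cell type could not be checked by expression in these data.

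Chemokines are small secreted proteins that steer leukocytes along concentration gradients, and their receptors are membrane proteins that signal through inhibitory G proteins. Most inflammatory ligands lie in tandem clusters that arose by gene duplication, whereas homeostatic ligands guide lymphocytes through resting lymphoid tissue. Mature B cells use Cxcr5 to enter follicles, Ccr7 to approach the T cell zone, and Cxcr4 to respond to the stromal ligand Cxcl12. RIF1 is a chromatin-bound protein known for its role in the timing of DNA replication and in the repair of DNA breaks.

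Peaks lay at the 5′ end of 11 of the 59 members (18.6%), counted as an overlap of at least 1 bp with the 1 kb on each side of the annotated 5′ end. The share over all protein-coding genes of these autosomes was 32.2%. Among ligands it was 6 of 38 (15.8%), and among receptors 5 of 21 (23.8%). With each symbol counted once, it was 10 of 57 members (17.5%), 5 of 37 ligands (13.5%) and 5 of 20 receptors (25.0%). A peak overlapped the gene itself in 13 members (22.0%), against 36.2% of all coding genes, in 7 ligands (18.4%) and 6 receptors (28.6%). Wide intervals overlapped 8 members (13.6%), against 23.6% of all coding genes, in 4 ligands (10.5%) and 4 receptors (19%). Either a peak at the 5′ end or a wide interval was found at 19 members (32.2%), against 55.5% of all coding genes. This held for 10 ligands (26.3%) and 9 receptors (42.9%). Ligands thus lay below receptors in each of these counts, and both lay below all coding genes. For receptors the gap to all coding genes also rested on few genes, with 5 of 21 at a peak and 4 of 21 in a wide interval. It is therefore not read as a result about receptors. The order of ligands and receptors rested on a few genes and turned when only peaks at or above the median width of 1365 bp were kept, with a peak at the 5′ end of 5 of 38 ligands (13.2%) and 2 of 21 receptors (9.52%).

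The ligand count was lowest in the clusters, whose ligands also had a lower median CG ratio than those elsewhere (described below). A cluster was taken as 3 or more members of a kind with under 500 kb between neighbours, which gave 5 ligand clusters with 23 ligands and 1 receptor cluster with 8 receptors. In ligand clusters, 2 of 23 genes (8.70%) had a peak at the 5′ end and 0 lay in a wide interval. These 23 include the 4 genes of the Ccl21c to Ccl21a cluster, in repeated sequence where a peak could be missed (described below). Of the 15 ligands elsewhere, 4 (26.7%) had a peak at the 5′ end and 4 lay in a wide interval, so that 8 (53.3%) had either form. Both identifiers of Ccl25 are among the 4 with a peak, and they share that peak. For receptors, 2 of 8 in the cluster (25.0%) and 3 of 13 elsewhere (23.1%) had a peak at the 5′ end. Wide intervals held 0 of the clustered and 4 of the other receptors. The lack of wide intervals was therefore shared by all 6 clusters, ligand and receptor alike.

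**Figure D1:**
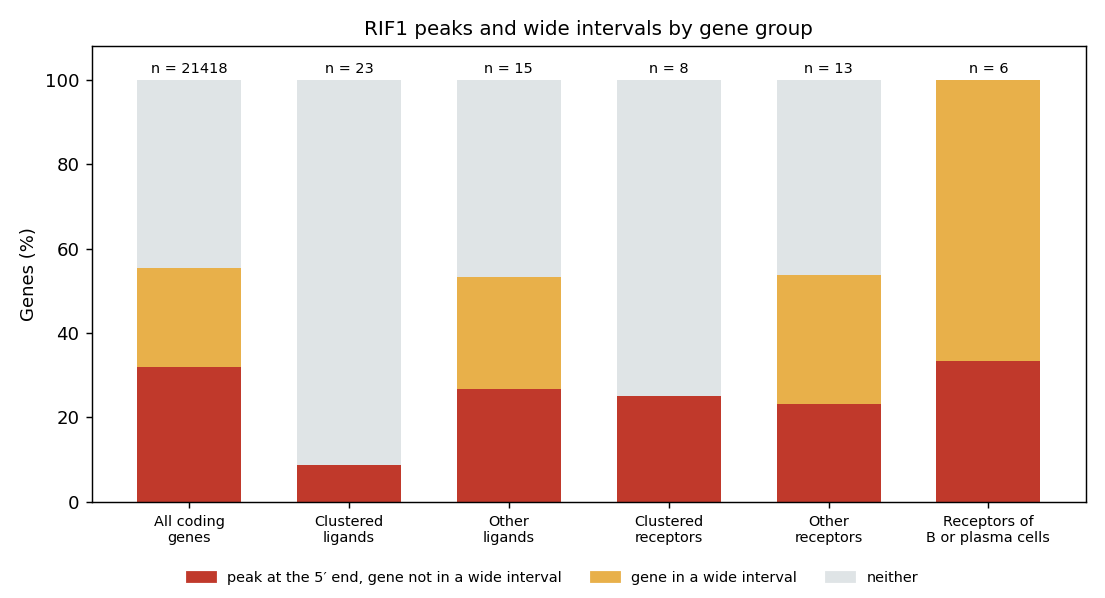
Bars show the percent of gene identifiers with a peak at the 5′ end and outside a wide interval (red), in a wide interval (yellow) or with neither (grey), for each group named on the x axis, with n above it. Clustered ligands have the smallest coloured share (8.70%), and 4 of these 23 lie in repeated sequence where a peak could be missed. The bar of the 6 autosomal receptors known from B cells or plasma cells, a list drawn up with results known, is coloured in full.

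Cxcl10, an interferon-induced ligand of the receptor Cxcr3, had the most centred peak among the ligands. Cxcl10 (ENSMUSG00000034855.7, chromosome 5, 92775664 to 92777915, minus strand) was overlapped by a peak of 2289 bp (92776707 to 92778995) that reached from -1080 to 1208 bp of the 5′ end (negative values lie upstream). The midpoint lay 64 bp inside the gene, in an exon, and also within the overlapping gene Art3. A further 4 peaks lay within 50 kb of the Cxcl10 5′ end, which made 5 in all. Its neighbour Cxcl9, another interferon-induced ligand of Cxcr3, had no peak at its own 5′ end, and the nearest lay 17.6 kb downstream. RIF1 was therefore listed at the promoter of 1 gene of this pair but not at the other.

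Cxcl2, a neutrophil attractant that acts on Cxcr2, was the only gene of the Cxcl5 to Cxcl2 cluster with a peak at the 5′ end. Cxcl2 (ENSMUSG00000058427.6, chromosome 5, 91332897 to 91334935, plus strand) had a peak of 1619 bp (91331633 to 91333251) from -1264 to 354 bp of the 5′ end. This was also the only peak within the 147 kb of the cluster. The adjacent Cxcl1, a close relative with the same receptor, had its nearest peak 11.4 kb downstream, and this was the peak of Cxcl2. Cxcl5, Cxcl3 and Cxcl15 shared a nearest peak that lay 16.3, 43.1 and 51.6 kb upstream of them.

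Ccl3, a ligand of Ccr1 made by activated macrophages and lymphocytes, had a peak of 1768 bp (chromosome 11, 83461681 to 83463448). It ran from -591 to 1176 bp of the 5′ end of Ccl3 (ENSMUSG00000000982.5, 83461346 to 83462857, minus strand), with its midpoint in an intron. Ccl4, a closely related ligand that lies nearby, had no peak at its 5′ end, although a peak of 1613 bp ended 3605 bp upstream of it. Ccl5, which recruits lymphocytes and lies at the far end of this cluster, was similar, with a peak of 999 bp that began 3942 bp upstream. Both distances were the shortest among members without a peak at the 5′ end.

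To show the promoters behind these contrasts, the 250 bases before the 5′ end are given for the genes above with a peak (Cxcl10, Cxcl2, Ccl3) and for the neighbours of Cxcl2 and Ccl3 without a peak at the 5′ end (Cxcl1, Ccl4). Sequences are from build mm9, read 5′ to 3′ along the gene. Capitals mark matches on either strand to GGG, any 5 bases and CC, a loose form of the NF-kappaB site, with overlapping matches joined.
Cxcl10, chr5:92777916-92778165, minus strand: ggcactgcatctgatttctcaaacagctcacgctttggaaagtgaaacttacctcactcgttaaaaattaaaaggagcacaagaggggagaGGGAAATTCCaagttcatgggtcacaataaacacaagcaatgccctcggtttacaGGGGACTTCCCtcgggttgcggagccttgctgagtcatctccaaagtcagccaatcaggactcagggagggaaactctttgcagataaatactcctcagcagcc
Cxcl2, chr5:91332647-91332896, plus strand: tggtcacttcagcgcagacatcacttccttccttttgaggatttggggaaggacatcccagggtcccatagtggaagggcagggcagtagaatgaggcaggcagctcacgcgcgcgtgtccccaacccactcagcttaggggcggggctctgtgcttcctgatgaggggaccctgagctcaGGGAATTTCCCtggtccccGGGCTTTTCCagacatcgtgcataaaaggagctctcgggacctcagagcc
Cxcl1, chr5:91320017-91320266, plus strand: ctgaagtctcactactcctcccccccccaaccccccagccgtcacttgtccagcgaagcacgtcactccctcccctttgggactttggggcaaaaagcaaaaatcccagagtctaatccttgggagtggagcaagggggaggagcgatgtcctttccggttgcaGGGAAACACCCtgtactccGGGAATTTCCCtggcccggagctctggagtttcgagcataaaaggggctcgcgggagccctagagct
Ccl3, chr11:83462858-83463107, minus strand: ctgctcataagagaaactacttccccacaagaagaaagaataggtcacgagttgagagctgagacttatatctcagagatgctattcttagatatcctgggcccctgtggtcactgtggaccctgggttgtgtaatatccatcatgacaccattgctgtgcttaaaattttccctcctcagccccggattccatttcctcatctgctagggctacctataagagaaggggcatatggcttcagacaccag
Ccl4, chr11:83475836-83476085, plus strand: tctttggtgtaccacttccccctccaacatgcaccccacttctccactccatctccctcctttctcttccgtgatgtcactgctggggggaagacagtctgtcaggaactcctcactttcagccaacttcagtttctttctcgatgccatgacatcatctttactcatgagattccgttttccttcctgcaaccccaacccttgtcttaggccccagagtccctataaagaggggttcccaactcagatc

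Cxcl10, Cxcl2 and Cxcl1 each held 2 such stretches, and Ccl3 and Ccl4 held 0. The stretches of Cxcl10 lay at -159 to -150 and -104 to -94, those of Cxcl2 at -69 to -59 and -50 to -41, and those of Cxcl1 at -86 to -76 and -67 to -57, counted from the 5′ end with -1 as the last base before it. Presence of the motif and of a peak did not go together in these examples, as Cxcl1 had the motif without a peak and Ccl3 a peak without the motif. Over all coding genes, 49.4% of promoters of this length held the motif, and 44.1% of members did (26 of 59). The exact word GGGAATTTCC, present in both Cxcl1 and Cxcl2, was far rarer, in 22 of 21418 promoters (0.103%) on either strand. Of these, 5 belonged to members, namely Cxcl1, Cxcl2, Cxcl3, Cxcl5 and Ccr3, and Cxcl2 was the only 1 of the 5 with a peak at the 5′ end. Over all 22 promoters, 6 had a peak (27.3%). A match is a string of letters and does not show binding of a factor.

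The other ligands with a peak at the 5′ end were homeostatic. Ccl25, which attracts cells to thymus and gut, had a peak of 2470 bp (chromosome 8, 4323237 to 4325706) over the shared start of both its identifiers (ENSMUSG00000023235.7 and ENSMUSG00000055951.8). Its midpoint lay at -739 bp from the first of these, inside Elavl1, which encodes an RNA-binding protein and starts in the same window, so the peak cannot be assigned to Ccl25 alone. Ccl27a, a skin ligand of Ccr10 (ENSMUSG00000073888.5, chromosome 4, 41716340 to 41721120, minus strand), had a peak of 996 bp (41721031 to 41722026) with its midpoint at -408 bp. Cx3cl1, the membrane-anchored ligand also called fractalkine, had no peak at the 5′ end but a peak of 1513 bp in an intron, 7.22 kb from the 5′ end by its midpoint.

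The ligands in wide intervals were Ccl24, Ccl26, Cxcl16 and Cxcl17. Ccl24 and Ccl26, attractants of eosinophils through Ccr3, shared an interval of 1386 kb (chromosome 5, 135360001 to 136746000) with 43 coding genes. Cxcl16, the ligand of Cxcr6, lay in 2008 kb (chromosome 11, 68660001 to 70668000, 109 coding genes) and Cxcl17, a mucosal chemokine, in 1836 kb (chromosome 7, 24858001 to 26694000, 72 coding genes). All 4 lay whole inside their interval, with their 5′ ends at least 395 kb from its nearer edge.

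The map of members shows how the intervals were placed around each gene. Peaks at 5′ ends were rare among ligands, and many genes had no interval at all within 50 kb.

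**Figure D2:**
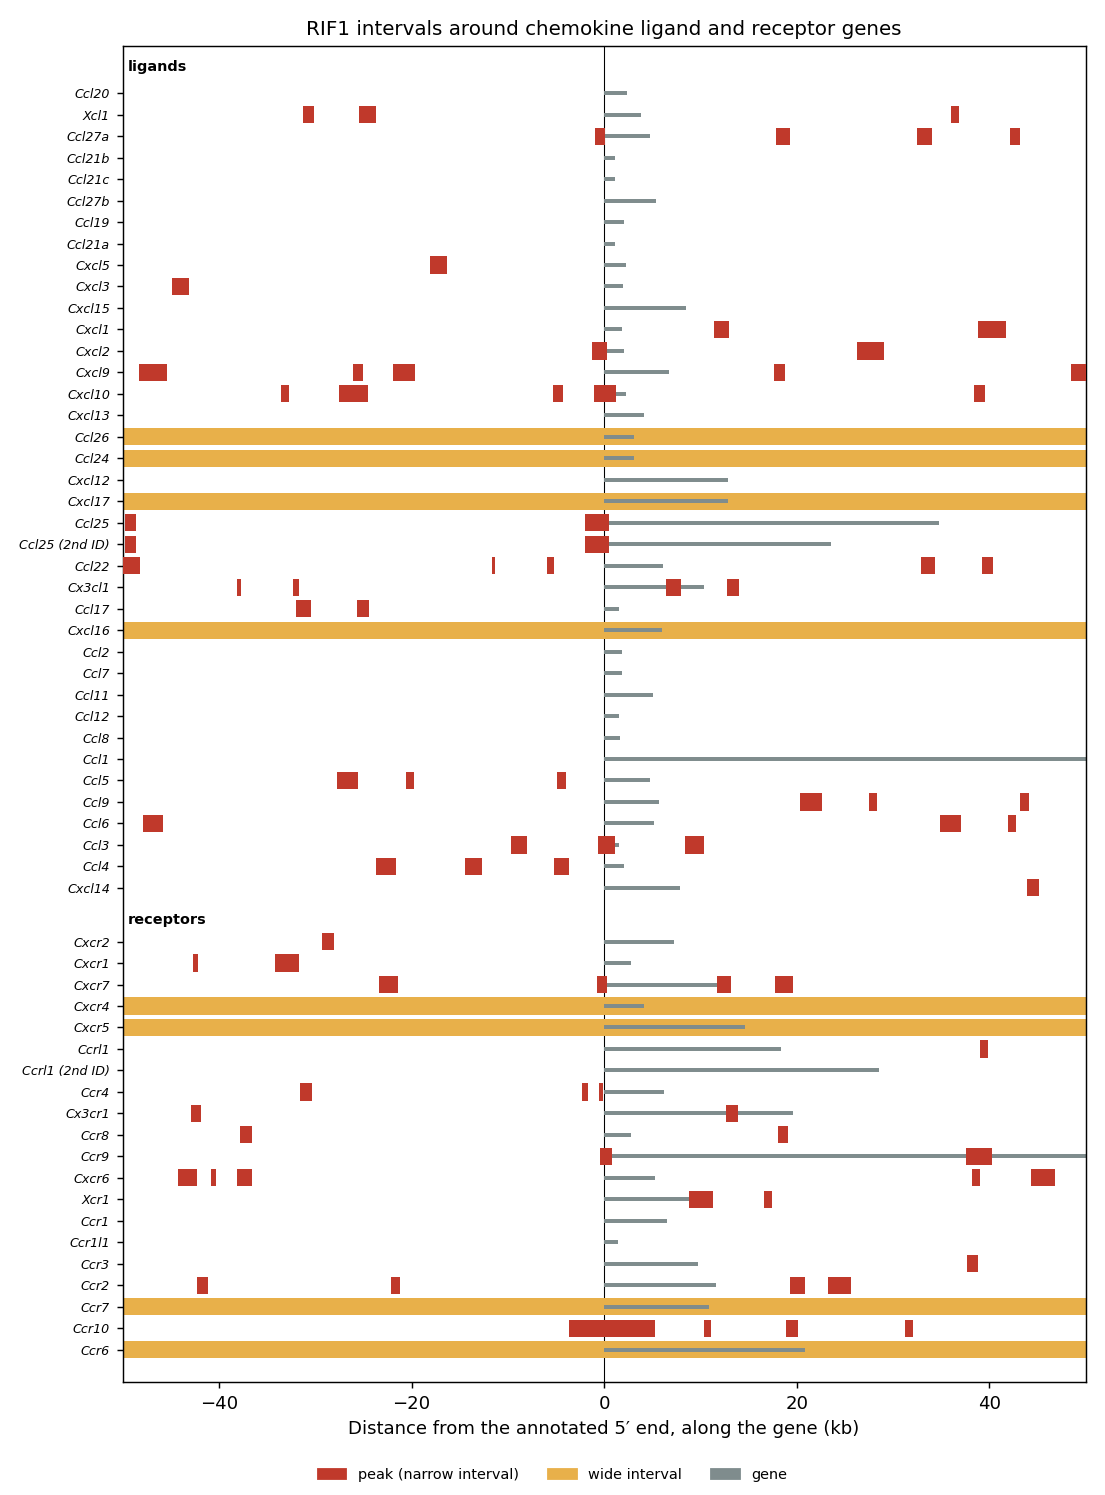
Each row is a gene identifier (58 of 59 shown), with ligands above and receptors below in chromosome order, drawn along the gene from 50 kb upstream to 50 kb downstream of the annotated 5′ end (x axis, kb). Red marks peaks, yellow wide intervals and grey the gene. Red lies at or next to 0 kb for 10 rows. The 8 yellow rows hold no peak by construction, since peaks overlapping broad domains were not kept.

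The ligand clusters differed among themselves in how many peaks lay between their genes. The Ccl2 to Ccl1 cluster on chromosome 11 (81849073 to 82119192, 270 kb) held 6 genes, among them the monocyte attractant Ccl2, and 0 peaks. The nearest peak lay 61.0 kb from Ccl2, 127 kb from Ccl12, 141 kb from Ccl8 and 82.3 kb from Ccl1. The 5′ end used for Ccl1 is that of a noncoding transcript of 129 kb, and its coding transcripts start 205 kb from the nearest peak. By contrast, the Ccl5 to Ccl4 cluster on the same chromosome (83339280 to 83478185) held 6 peaks in 139 kb, or 43.2 per Mb, against 8.84 per Mb along chromosome 11. Only 1 of these 6 lay at the 5′ end of a coding gene, that of Ccl3, and the other 5 lay over no member, 3 of them between Ccl5 and Ccl9. Ccl9 and Ccl6, myeloid ligands in the middle of the cluster, had their nearest peak 20.4 and 34.8 kb downstream of their 5′ ends. The clusters shared a chromosome and a median CG ratio of 0.14 (described below), yet 1 was empty of peaks and the other held the most per Mb of all 6.

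The remaining ligand clusters held fewer peaks in number. The Ccl22 to Ccl17 cluster on chromosome 8 (97269490 to 97335935, 66.4 kb), whose outer genes encode ligands of Ccr4, held 2 peaks, both near Cx3cl1 and neither at a coding 5′ end. Over its short span this came to 30.1 per Mb, against 6.14 along chromosome 8. The nearest peak lay 5236 bp upstream of Ccl22 and 24.5 kb upstream of Ccl17. The Ccl21c to Ccl21a cluster on chromosome 4 (42391951 to 42787525, 396 kb) held 0 peaks and 0 wide intervals, and the 5′ ends lay from 174 kb (Ccl21a) to 568 kb (Ccl21c) from the nearest peak.

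**Figure D3:**
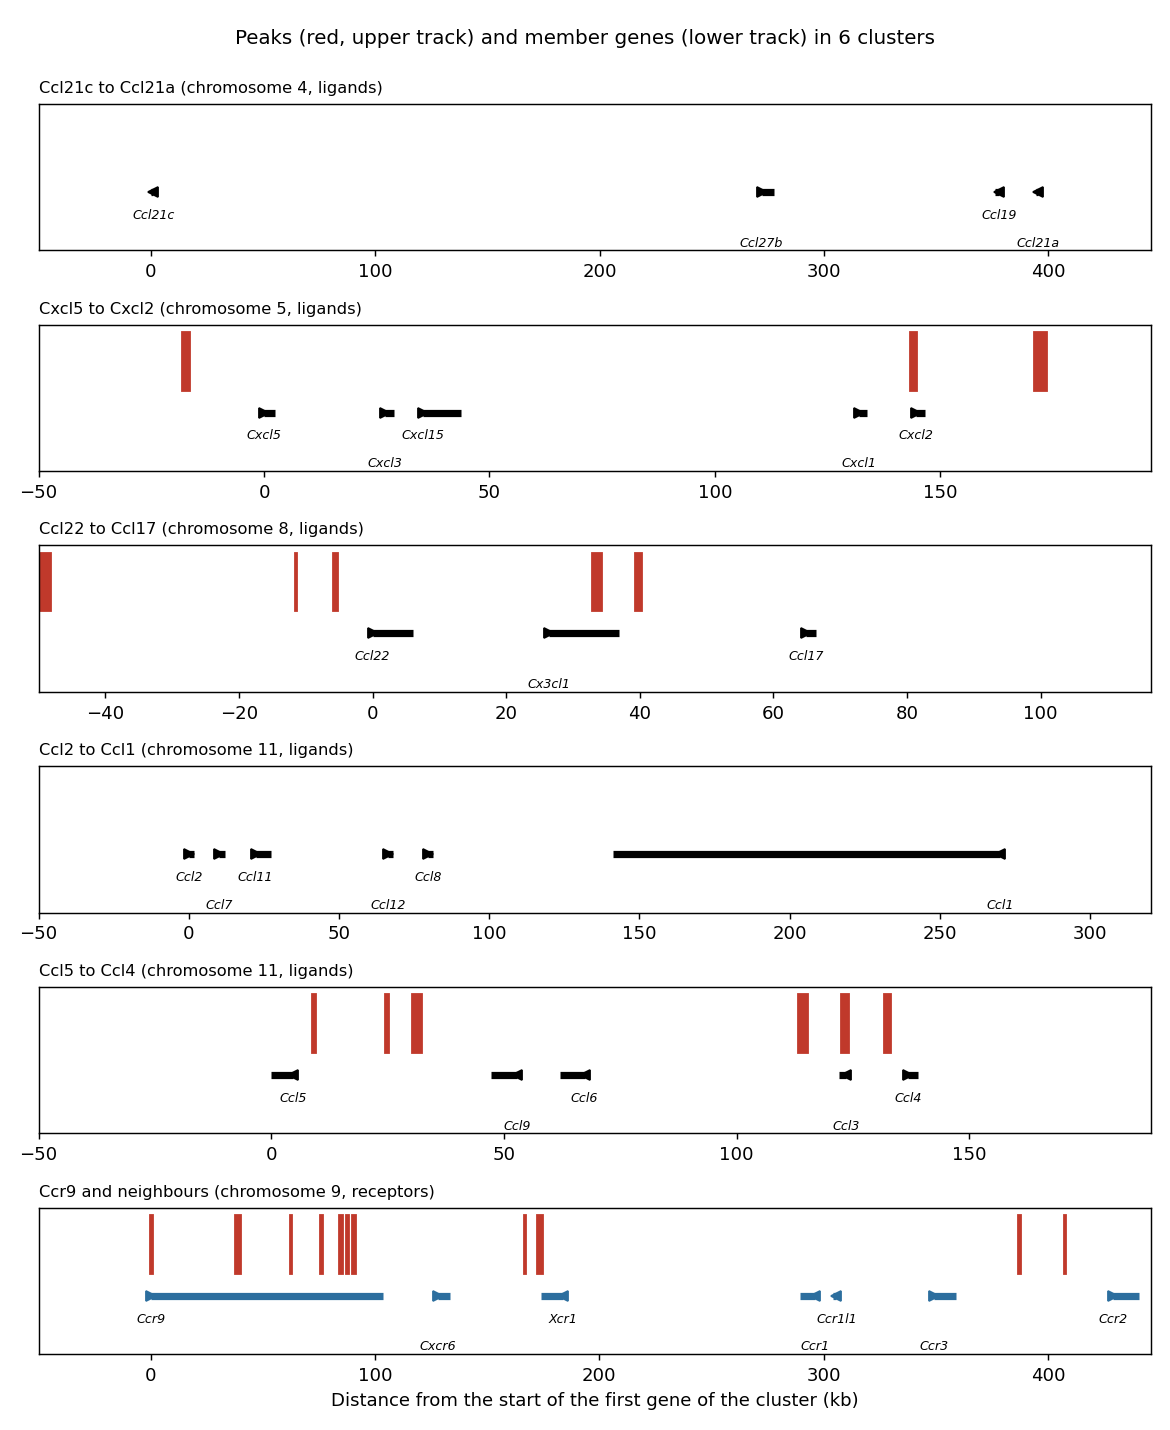
Each panel is a cluster, with position in kb from the start of its first gene on the x axis, peaks in red above and member genes as bars below (black for ligands, blue for receptors), with an arrowhead at each 5′ end. The Ccl2 to Ccl1 and Ccl21c to Ccl21a panels hold 0 peaks, and the Ccl5 to Ccl4 panel 6 within the span of the cluster. The receptor panel shows 7 of the 8 genes.

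The empty cluster on chromosome 4 lies in sequence that is repeated in the reference. The authors kept only reads that aligned at a single place, and in the windows of 5 genes (Ccl19, Ccl21a, Ccl21b, Ccl21c and Ccl27b) 0 of 1970 words of 32 bases occurred once. Reads of this length could not be placed there uniquely, and the length of the reads is not given in the sources used here. These genes include the ligands of Ccr7 and belong to a duplicated segment. Ccl27a came next, with 32.3% of words found once and 45.4% in the part of its window under the peak. In the other 53 members the share was at least 81.1%, and the median over all members was 99%. The 6 genes of the Ccl2 to Ccl1 cluster were among these 53. Without the 5 genes at 0, 6 of 33 ligands (18.2%) and 11 of 54 members (20.4%) had a peak at the 5′ end. Those 5 genes are therefore without a listed interval but not shown to lack RIF1.

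Receptors were examined next, beginning with those known from B cells and plasma cells. Of the 7 symbols in this list, which was drawn up with results of these data known, 6 lay on the autosomes and Cxcr3 lies on X. All 6 had either a peak at the 5′ end (Ccr9, Ccr10) or lay in a wide interval (Cxcr4, Cxcr5, Ccr6, Ccr7), and the corresponding share of all coding genes was the 55.5% given above. Among the other 15 receptor identifiers, 3 had a peak at the 5′ end and 0 lay in a wide interval.

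Cxcr4 (ENSMUSG00000045382.6, chromosome 1, 130484776 to 130488870, minus strand), the receptor of Cxcl12, lay in a wide interval of 360 kb (130380001 to 130740000) as its only coding gene. Of the 285 wide intervals on autosomes, 14 held exactly 1 coding gene, and the median was 9. The interval at Cxcr5 (ENSMUSG00000047880.7, chromosome 9, 44319871 to 44334504, minus strand), the follicle-homing receptor, spanned 808 kb with 35 coding genes. Ccr7 (ENSMUSG00000037944.8, chromosome 11, 99005510 to 99016391, minus strand) lay in 1040 kb with 36 coding genes. Ccr6 (ENSMUSG00000040899.6, chromosome 17, 8429077 to 8449992, plus strand), the receptor of Ccl20, lay in 468 kb with 9 coding genes. These receptors lay 109 kb (Cxcr4), 285 kb (Cxcr5), 164 kb (Ccr7) and 211 kb (Ccr6) from the nearer edge, and none at a border. The intervals at Cxcr5, Ccr7 and Ccr6 covered other coding genes and cannot be assigned to the receptor. At Cxcr4 no other coding gene lay in the interval, but positions alone do not tie it to that gene. Noncoding genes were not counted there.

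The peaks counted for the plasma cell receptors were not theirs alone. The peak at Ccr10 (ENSMUSG00000044052.3, chromosome 11, 101034311 to 101036757, minus strand), which guides antibody-secreting cells to mucosa and skin, was 8925 bp wide (101031480 to 101040404), the widest at any member. It covered all of Ccr10 and the 5′ windows of Cntnap1 and Plekhh3. The median width of the 10 distinct peaks at member 5′ ends was 1564.5 bp, against 1590 bp for the 6285 peaks at 5′ ends of all coding genes. Of these 10 peaks, 3 also lay in the window of another coding gene (Ccl25, Ccr9 and Ccr10), as did 12.2% of the 6285.

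Ccr9, a gut-homing receptor whose ligand is Ccl25, had the most peaks over its gene, 7 in all. Its annotated span (ENSMUSG00000029530.8, chromosome 9, 123587557 to 123691089, plus strand) includes a transcript of 104 kb that starts at Slc6a20a and runs across Lztfl1. The peak counted at its 5′ end (123587157 to 123588384) lay in the window of Slc6a20a, an amino acid transporter gene, and another (123625153 to 123627885) in that of Lztfl1. The other transcripts of Ccr9 start at 123676329 to 123676347. For these, the nearest peak (123674811 to 123675303) ended 1026 to 1044 bp upstream, just outside the 1 kb window, and a further peak of 1549 bp lay downstream (123677483 to 123679031). Peaks thus lay on both sides of the start of the shorter transcripts, but none lay in their 1 kb window.

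Ccr9 opens the receptor cluster of chromosome 9, which held 8 receptors and 13 peaks in 475 kb, or 27.4 per Mb against 7.50 along the chromosome. Of these 13, 7 lay over Ccr9 and 1 over Xcr1.

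The receptors in the middle of this cluster had no peak over the gene, apart from Xcr1. The nearest peak lay 90.9 kb from the 5′ end of Ccr1, 81.1 kb from Ccr1l1 and 37.7 kb from the eosinophil receptor Ccr3. Ccr2, the receptor of Ccl2, had no peak at its 5′ end. Cxcr6, the receptor of Cxcl16, had its nearest peak 36.6 kb upstream. Xcr1, a receptor of dendritic cells, was overlapped at its 3′ end by a peak of 2581 bp that lay in the window of Fyco1.

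Of receptors outside the cluster, Cxcr7 and Ccr4 had peaks of their own. Cxcr7 (ENSMUSG00000044337.5, chromosome 1, 92100555 to 92113326, plus strand), an atypical receptor that takes up Cxcl12 without signalling through G proteins, had a peak of 1023 bp over the 5′ end (92099847 to 92100869) and a second of 1399 bp over its last part, with its midpoint in an exon. Ccr4 (ENSMUSG00000047898.5, chromosome 9, 114399434 to 114405662, minus strand), the receptor of Ccl17 and Ccl22 on helper T cells, had a peak of only 366 bp (114405789 to 114406154) that ended 127 bp upstream of the gene. It was the narrowest at a member and the only 1 of the 10 that did not cover the 5′ end itself. Cx3cr1, the receptor of Cx3cl1, had a peak of 1276 bp in an intron, 13.3 kb from the 5′ end. The neutrophil receptors Cxcr1 and Cxcr2 had their nearest peaks 31.7 and 28.0 kb upstream, and Ccr8 had a peak 18.1 kb downstream. Ccrl1, the other atypical receptor, had its nearest peak 39.0 and 63.1 kb downstream of the 5′ ends of its 2 identifiers.

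Distances to the nearest peak depended on the genes in repeated sequence. Outside wide intervals, the median distance from the 5′ end was 39.0 kb for 34 ligands and 19.3 kb for 17 receptors, against 10.1 kb for 16369 coding genes. A peak lay within 50 kb of 19 of the 34 ligands (55.9%) and 14 of the 17 receptors (82.4%), against 68.1% of coding genes. Without the 5 ligands whose windows held no word found once, the median of the other 29 was 23.7 kb, close to that of receptors, and 19 of 29 (65.5%) had a peak within 50 kb. The 5 members without a peak at the 5′ end that came closest to one were Ccl4, Ccl5, Ccl22, Cx3cl1 (6465 bp) and Xcr1 (8770 bp). The 5 farthest from any peak were Cxcl17 (4105181 bp), Ccl26 (839175 bp), Ccl24 (829701 bp), Ccl21c (568398 bp) and Cxcl16 (509397 bp). All 5 were ligands, but 4 lay inside wide intervals, where no peak can be listed, and Ccl21c lay in the repeated segment of chromosome 4. This ranking is therefore no result about ligands. Of the homeostatic ligands with words found once, Ccl25 and Ccl27a had the peaks described above, although the window of Ccl27a was partly repeated. Cxcl12 lay 263 kb, the follicle-forming Cxcl13 80.5 kb and Cxcl14 43.9 kb from the nearest peak. Ccl20, the ligand of Ccr6, and Xcl1, the ligand of Xcr1, lay 277 and 23.7 kb away.

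Base composition at the 5′ end moved with these counts. The ratio of observed to expected CG dinucleotides in the 1 kb on each side, which is high in CpG island promoters, had a median of 0.209 in members (ligands 0.209, receptors 0.199) against 0.475 in all coding genes. Among ligands the median was 0.177 for the 23 in clusters and 0.375 for the 15 elsewhere. The part of this ratio in the contrast between these ligands was not tested. A ratio under 0.3 was found in 41 of 59 members (69.5%), in 18 of the 23 clustered ligands (78.3%) and in 34.7% of all coding genes. Peaks at the 5′ end were rare in such genes throughout, with 2.72% of the 4813 coding genes under 0.2 and 6.72% of the 2619 from 0.2 to 0.3, against 26.9% of the 3835 from 0.3 to 0.5 and 54.7% of the 10151 at or above 0.5. In the same classes, members had a peak in 1 of 28, 2 of 13, 5 of 12 and 3 of 6 genes. Within a class the member shares were thus not lower than those of all coding genes, except at or above 0.5. How far base composition accounts for the low overall count was not tested. Members under 0.3 with a peak included Ccl3 (0.23) and Ccr4, which lay just under the limit. Cxcl12 (0.73) and Cxcl14 (0.64) had high ratios and no interval.

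**Figure D4:**
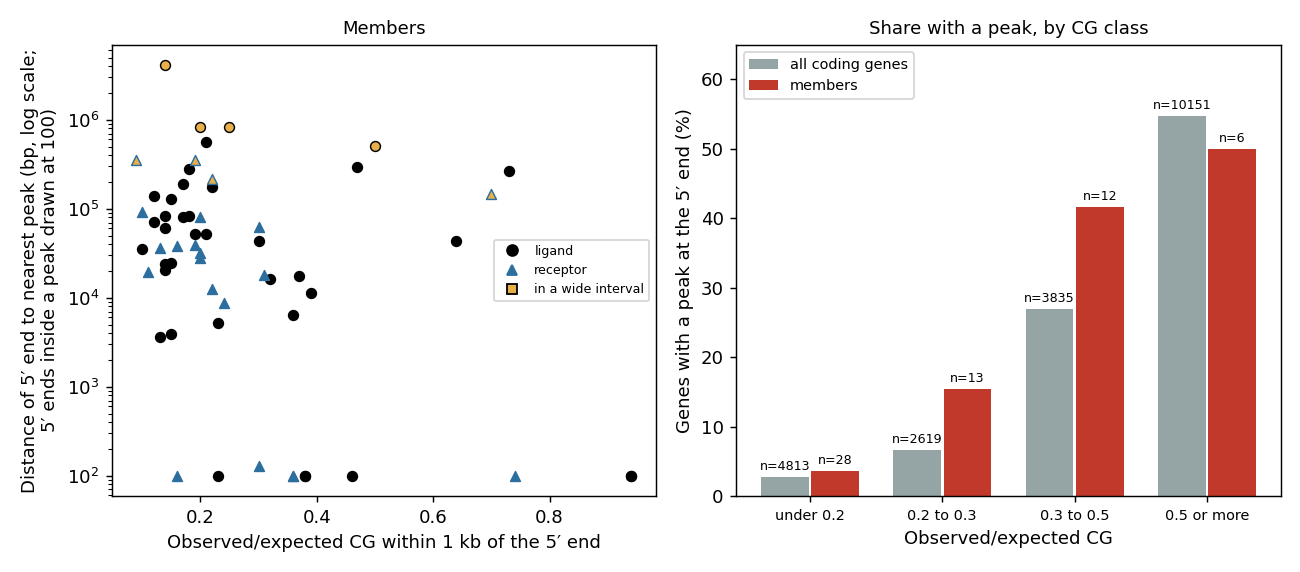
Left, the distance from each member's 5′ end to the nearest peak (bp, log scale, with 5′ ends inside a peak drawn at 100) against the observed to expected CG ratio, with ligands as circles, receptors as triangles and genes in wide intervals in yellow. Right, the percent of all coding genes (grey) and of members (red) with a peak at the 5′ end by CG class, with n above each bar. Shares rise with the ratio in all coding genes, from 2.72 to 54.7%, and 28 of the 59 members fall in the lowest class.

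Other short motifs were counted in the 250 bases before the 5′ end, on either strand and at any position. The letters TATAAA, the core of the TATA box, were found in 17 of 59 members (28.8%), 12 of 38 ligands (31.6%) and 5 of 21 receptors (23.8%), against 12.4% of all coding genes. Some of these matches, such as those of Cxcl9 and Ccl26, lay far upstream of where a TATA box sits, so the count is one of strings and not of TATA boxes. Among members with a peak at the 5′ end the string was present in 1 of 11, Cxcr7. Among all coding genes with such a peak it was present in 5.87%. The E-box CACGTG was found in 2 members (3.39%), Cxcl3 and Xcr1, and in 6.52% of all coding genes. The STAT-like form TTCNNNGAA was found in 5 members (8.47%), all ligands (Ccl2, Ccl11, Ccl17, Ccl24 and Cxcl14), a share near the 6.79% of all coding genes.

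The genes that carry the chemokine signal inside the cell showed RIF1 more often than the receptors themselves. Of 40 symbols for G protein subunits, receptor kinases, arrestins, RGS proteins and effectors, 39 were matched on the autosomes. A peak lay at the 5′ end of 19 (48.7%) and a wide interval over 14 (35.9%), so that 33 (84.6%) had either, beside the shares of 32.2%, 23.6% and 55.5% in all coding genes. Peaks were found at Gnai2 and Gnai3, the inhibitory G protein subunits, at Arrb1, Grk5 and Grk6, which desensitise receptors, at Rgs14 and Rgs19, at the phosphoinositide kinase genes Pik3cg and Pik3r5, and at Dock2, Elmo1 and Rac1, which drive migration. Wide intervals held Rgs1, Rgs2 and Rgs13, regulators of G protein signalling that limit B cell responses to chemokines, and Arrb2, Rac2, Plcb2 and Pik3cd. Neither form was found at 6 genes, Gnaq, Rgs18, Rhoa, Cdc42, Dock8 and Rapgef1, although Dock8 and Rapgef1 had a peak over the gene. The list was drawn up with results of these data known. The 39 genes had a median CG ratio of 0.610, above that of the receptors, and its part in this count was not tested. Of the 6 chemokine genes with other names, Ccrl2 had a peak at the 5′ end, Cmklr1 2 peaks over the gene only, Darc and Ccbp2 lay in wide intervals, and the platelet ligands Pf4 and Ppbp had neither.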

How the data were processed

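RIF1 ChIP-seq libraries of activated primary B cells (2 Rif1FH and 2 Rif1WT samples) were processed by the authors with Trim Galore 0.6.4, Bowtie 1.0.0 (uniquely aligned reads, build mm9), MACS2 2.2.6, EDD and bedtools 2.27.1, as stated in the methods of the study and the submitters' processing notes. The calling threshold and the use of the Rif1WT samples in calling were not given in the sources used here. The deposited list holds chromosome, start and end of intervals called in both Rif1FH replicates and no signal or score. Unique alignment leaves repeated sequence without peaks, and merging can join neighbouring peaks.

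Intervals were split at 50 kb. The widest narrow interval was 14827 bp and the narrowest wide interval 90000 bp. Overlap with genes and with 1 kb on each side of the gene's 5′ end was counted from 1 bp, on reference NCBIM37, which is mm9, with GENCODE M1. Coordinates count from 1. Words of 32 bases in each window were counted on both strands of the whole reference, as exact matches. The length of the reads was not given in the sources used here. Motifs were searched on both strands. The overlap code was tested on simulated positions. Python 3.11.15, numpy 2.4.6, pysam 0.24.0, matplotlib 3.10.9 and samtools 1.23.1 were used.

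Members and lists were chosen with earlier results of these data known. Genes named were all members with a peak or wide interval, all receptors, the nearest and farthest members without a peak at the 5′ end and the ends of clusters. Other genes of the family were added where a result concerned them, after their values were seen. The 250 bases shown for 5 promoters, and the word shared by Cxcl1 and Cxcl2, were likewise chosen after the values were seen. Ccl28, Cxcr3, Was and P2ry8 were listed but not analysed here. Some genes that are counted are not reported here by name.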

Additional observations from a re-analysis of the deposited data

How the results depend on the processing

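The 5 counts of members (peak at the 5′ end in members, ligands and receptors, peak over the gene, wide interval) were recomputed under other settings in 46 comparisons, of which 15 were added after the data were seen. In 37 the count kept within 1.5 times the reported value, and in all 46 the share of members lay below that of all coding genes. The 46 comparisons reuse the same genes and are not independent. Where symbols were counted once or repeated windows left out, this was done for members only and not for all coding genes. Taking narrow and wide intervals together gave a 5′ end interval to 19 members, 10 ligands and 9 receptors, and an interval over the gene to 21 members, by construction. Keeping peaks at or above the median width of 1365 bp left 7 members, 5 ligands (13.2%) and 2 receptors (9.52%) with a peak at the 5′ end, which turned the order of ligands and receptors. No other setting computed for both turned it. Leaving out peaks in the window of another coding gene (added) left 7 members, 4 ligands and 3 receptors. Requiring the peak's midpoint in the gene left 8 members. Windows of 0.5 or 2 kb left the counts at 11, 6 and 5, and 5 kb gave 13, 8 and 5. With the most downstream coding transcript (added) they were 8, 4 and 4. Without the genes that held no word found once (added), the median distance to the nearest peak fell from 39.0 to 23.7 kb for ligands outside wide intervals.

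No paired analysis was possible because the single list pools the replicates, and leaving out a replicate was likewise not run. Depth is unknown, so a gene without an interval is only one without a listed interval. Ligands and receptors were not tested against each other, since members share loci and the counts are of 2 to 11 genes.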

Other observations

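Other guidance receptors of B cells lay mostly in wide intervals. Of 16 symbols, 15 were matched, and 10 of the 15 (66.7%) lay in a wide interval, among them S1pr1, which lets lymphocytes leave lymph nodes, Gpr183, which places B cells at the follicle edge, and the integrin genes Itgal and Itgb2. A peak at the 5′ end was found at Itga4, Itgb7 and Cd44. Fpr1 had neither form. The list was drawn up with results of these data known, and the share of all coding genes in wide intervals was 23.6%.

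Of ligand and receptor pairs looked up after the values were seen, Ccl25 with Ccr9 and Ccl27a with Ccr10 had a peak at both 5′ ends, although those of Ccl25, Ccr9 and Ccr10 lay in the windows of other genes. Cxcl12 with Cxcr4, Cxcl13 with Cxcr5 and Ccl20 with Ccr6 had no interval at the ligand and a wide interval at the receptor. The reverse held for Cxcl16 with Cxcr6 and for Ccl24 and Ccl26 with Ccr3. There the ligands lay in a wide interval and the receptors had neither form. Cxcl2 had a peak and its receptor Cxcr2 neither form.

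Marker genes of B cells had a peak at the 5′ end in 4 of 8 and a wide interval in the other 4 of 8. Of T cell markers, 0 of 8 had a peak at the 5′ end and 2 a wide interval, and of myeloid markers 1 of 8 (Cd14) and 4 of 8. Over all coding genes the shares were 32.2% for a peak at the 5′ end and 23.6% for a wide interval. Occupancy is not expression, so these counts do not measure the purity of the cells.

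Interleukin and interleukin receptor genes had a peak at the 5′ end in 14 of 80 (17.5%) and a wide interval in 24 of 80. TNF superfamily genes had them in 14 of 40 (35.0%) and 18 of 40 (45.0%). The shares over all coding genes were 32.2% and 23.6%. Outside wide intervals, a peak lay at the 5′ end of 14 of 56 interleukin genes (25.0%) and 14 of 22 TNF superfamily genes (63.6%). The same share was 21.6% in members and 41.8% in all coding genes. For a peak at the 5′ end, the interleukin share was near that of chemokine genes (11 of 59, 18.6%). The median CG ratios were 0.222 in interleukin genes and 0.209 in chemokine genes. A low share of peaks at 5′ ends was thus not particular to chemokine genes. No difference between the families was tested.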
